A study of Mus musculus with 32 samples.

Results

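The 7 genes described here, Fam124b, Sgk2, Nnat, Lonrf3, Phyhip, Cys1 and Nfe2l3, were chosen by name from the 50686 genes of a count table of mouse brown fat because their RNA changed strongly over the day and none has an established part in the core clock. The choice used the difference between time points in all 32 libraries, so every time-of-day value of these genes is given as a description and carries no test. Differences between mice killed at the same time point were not used for the choice and are tested. All 7 passed the filter on low counts that left 15505 genes.

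Interscapular brown adipose tissue (iBAT) was taken from male C57BL/6J mice, 10 weeks of age, fed chow and housed at 22 °C with 12 h of light and 12 h of dark. The 8 groups were defined by the Zeitgeber time (ZT) at which the animals were killed, with ZT0 at lights on and ZT12 at lights off, 3 h between neighbouring groups and 4 mice in each. One library per mouse was sequenced from total RNA as a stranded paired-end library, and values are CPM, the counts of a gene put on a common library size with TMM factors. No mouse carried a transgene or a treatment, and the mice were not fasted.

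Library totals ran from 16300770 to 18254659 counts, so that 1 count was worth about 0.0579 CPM, and intervals from counts cover counting error only. The 7 brown adipocyte markers (Ucp1, Cidea, Ppargc1a, Dio2, Prdm16, Cox8b and Elovl3) summed to between 3395 and 7227 CPM in the 32 libraries. The 8 skeletal muscle markers summed to between 2.17 and 6836 CPM, so the fat pads carried very different amounts of muscle RNA. According to the library names, ZT0, ZT3 and ZT6 shared sequencing lane 2, ZT9, ZT12 and ZT15 lane 3, and ZT18 and ZT21 lane 4; between these blocks of time points, lane and time of day cannot be told apart. In whole tissue, fewer cells of a type and less RNA per cell cannot be told apart either.

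Daily rhythms within a tissue are kept by a feedback loop of transcription factors. BMAL1 (gene Arntl), paired with CLOCK or NPAS2, activates genes through E-boxes, and the period and cryptochrome proteins, themselves products of such genes, repress this activation. The ROR and REV-ERB receptors compete at ROR elements (ROREs), and DBP, TEF, HLF and NFIL3 act at D-boxes, so that genes carrying these elements can peak at different hours. Brown fat burns lipid and glucose to make heat.

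The members do not form a family. Nfe2l3 encodes NRF3, a basic leucine zipper factor of the cap'n'collar group, and Sgk2 a serine/threonine kinase of the serum- and glucocorticoid-regulated family. Lonrf3 encodes a protein with RING finger and LON domains, features found in ubiquitin ligases. Nnat encodes neuronatin, a small membrane protein of the endoplasmic reticulum that is transcribed from the paternal allele, and Cys1 encodes cystin, a protein of the primary cilium whose loss causes polycystic kidneys in the cpk mouse. Phyhip encodes a protein that interacts with phytanoyl-CoA hydroxylase and is known mainly from brain, and the product of Fam124b is little characterised.

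RefSeq promoter windows (GRCm38.p6, 250 bases before to 50 after the annotated start) were at hand for 5 members: Fam124b, Nnat, Lonrf3, Cys1 and Nfe2l3. They were searched on both strands for 7 short motifs, namely the E-box CACGTG, the E'-box CACGTT, the D-box TTATGNAA, the RORE core TAGGTCA, the cAMP response element TGACGTCA, the antioxidant response element TGACNNNGC and the TATA box TATAAA. The 120 bases before the start are printed for the only members with a match to a clock-related motif, on the strand of the gene (chrX:36328289-36328408, plus strand, for Lonrf3 and chr1:80213945-80214064, minus strand, for Fam124b), with the matches in capitals.
Lonrf3: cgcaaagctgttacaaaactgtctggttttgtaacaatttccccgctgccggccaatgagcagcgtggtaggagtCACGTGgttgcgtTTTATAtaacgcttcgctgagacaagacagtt
Fam124b: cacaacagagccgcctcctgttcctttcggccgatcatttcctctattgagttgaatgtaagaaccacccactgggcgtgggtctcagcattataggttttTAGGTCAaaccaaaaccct
In Lonrf3, which was highest in the dark, the first run of capitals is an E-box at positions -45 to -40 from the start, and the second is a TATA box read on the opposite strand at -32 to -27. In Fam124b, which was highest around lights on, the capitals are a RORE core at -19 to -13. The E-box letters occurred in 7.15% of the 32851 mouse promoter windows, the TATA box letters in 13.6% and the RORE core letters in 2.61%. The Nfe2l3 window held only a TATA box, at -108 to -103, and none of the 7 motifs was found in the windows of Nnat and Cys1. These matches describe letters and not bound sites. Positions are counted from the RefSeq start, which lies downstream of the first base of the gene in the GENCODE coordinates given with the values. The distance is 56 bases for Lonrf3 and 4529 bases for Fam124b, so all the printed matches fall inside the GENCODE genes.

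Of the members, 4 peaked in the light phase and 3 in the dark. A cosine of 24 h fitted to log2 CPM placed the peak of Fam124b at ZT 0.89 ± 0.35 h (SE, as for all fitted values), that of Nfe2l3 at ZT 2.4 ± 0.70 h, that of Sgk2 at ZT 8.81 ± 0.74 h and that of Nnat at ZT 11.1 ± 0.84 h. In the dark, Cys1 peaked at ZT 15.8 ± 0.35 h, Lonrf3 at ZT19 ± 0.43 h and Phyhip at ZT 20.3 ± 0.74 h. With lane as a term of the fit, the peak of Nnat moved to ZT 4.66, that of Phyhip to ZT 16.5 and that of Sgk2 to ZT 6.84.

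**Figure D1:**
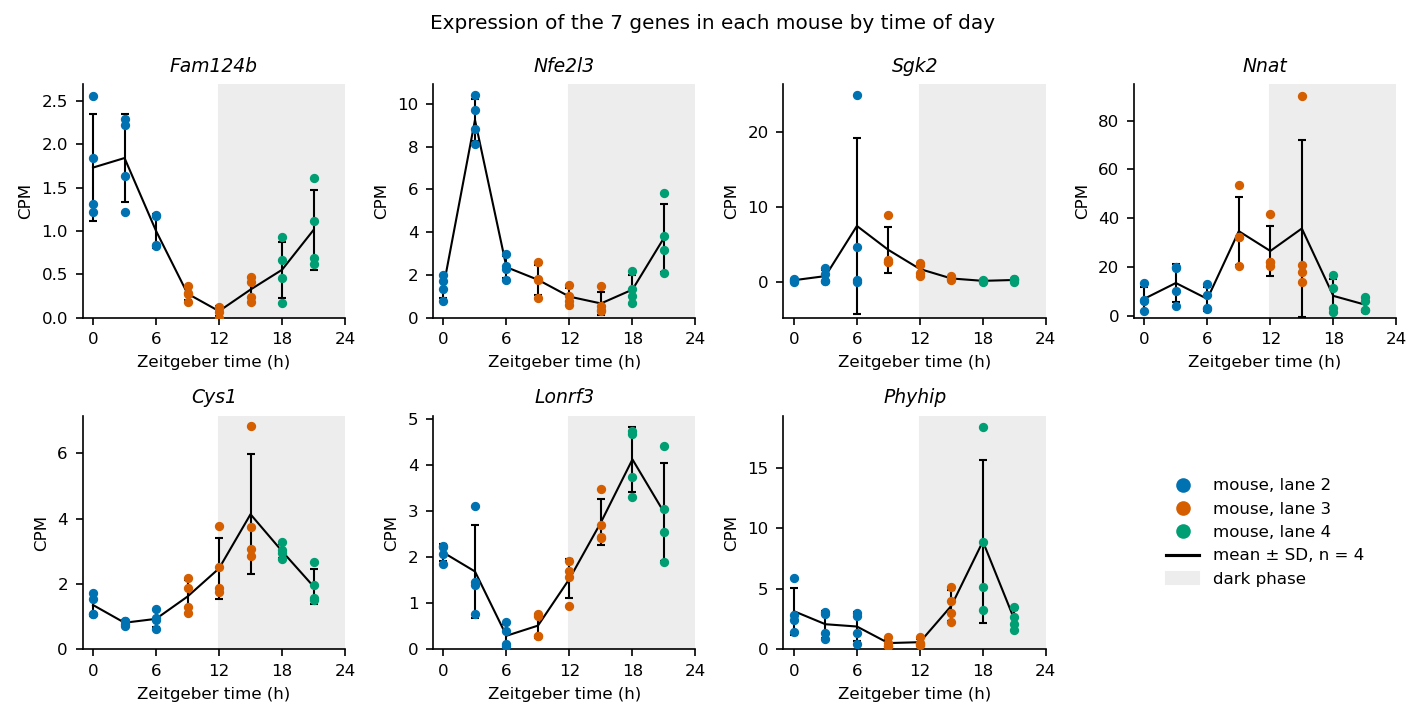
CPM of each member (vertical axis, linear, 1 panel per gene) against Zeitgeber time in hours (horizontal axis), with 1 point per mouse coloured by sequencing lane, a line through the means, bars of ± SD of the 4 mice and the dark phase shaded. The ZT3 mice of Nfe2l3 stand above all others, between 8.12 and 10.4 CPM, whereas single mice at 24.9 CPM (Sgk2, ZT6) and 90.2 CPM (Nnat, ZT15) carry the highest means of those genes.

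Nfe2l3 (ENSMUSG00000029832, chromosome 6, 51432670 to 51458768, plus strand, GRCm38) was concentrated at a single time point. At ZT3 the 4 mice had 8.12, 8.82, 9.7 and 10.4 CPM. At ZT0 they had 0.775, 1.33, 1.72 and 1.99 CPM, and at ZT6 1.74, 2.28, 2.42 and 2.98 CPM. The ZT3 mice thus lay apart from those killed 3 h before and 3 h after, without overlap. The remaining time points held 0.907, 1.77, 1.81 and 2.61 CPM at ZT9, 0.581, 0.789, 1.02 and 1.53 CPM at ZT12, and 0.293, 0.35, 0.532 and 1.47 CPM at ZT15. At ZT18 the values were 0.662, 1.01, 1.36 and 2.2 CPM, and at ZT21 they were 2.07, 3.17, 3.84 and 5.85 CPM. Levels were therefore low around lights off and already higher late in the dark, with the ZT21 mice overlapping those of ZT6. The rise towards ZT3 was not steady. Every ZT21 mouse (lane 4) lay above every ZT0 mouse (lane 2), with means of 3.73 and 1.45 CPM.

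The mean of Nfe2l3 at ZT3, 9.25 ± 0.991 CPM (SD, n = 4), was 14-fold the ZT15 mean of 0.662 ± 0.549 CPM (95% counting interval of the ratio 10.1 to 18.5). Without replicate 1 of ZT15, the highest mouse of that group, the ratio was 23.6. The highest library outside ZT3 had 5.85 CPM. A cosine caught 61% of the variance between the time means of Nfe2l3, against a median of 70.6% over the tested genes that passed the cosine test, and gave an amplitude of 1.22 ± 0.22 log2 units from mean to peak. Nfe2l3 was the only member whose 4 mice of the highest time point lay above the 28 other libraries. That pattern held for 153 of the 15498 tested genes outside the members, or 0.987%.

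Sgk2 (ENSMUSG00000017868, chromosome 2, 162987330 to 163014127, plus strand) varied more between mice than any other member. At ZT6 the 4 mice had 0.0591, 0.239, 4.71 and 24.9 CPM. At ZT9 they had 2.62, 2.66, 2.93 and 8.92 CPM, and at ZT12 0.85, 1.21, 2.33 and 2.52 CPM. The ZT6 group thus held both the highest value of all 32 libraries and a value of a single count, while all 4 mice at ZT9 had at least 2.62 CPM. At ZT0 the values were 0.0596, 0.118, 0.321 and 0.445 CPM, at ZT3 0.116, 0.12, 1.12 and 1.8 CPM, and at ZT15 0.295, 0.352, 0.473 and 0.758 CPM. The lowest groups were ZT18, with 0, 0.11, 0.169 and 0.327 CPM, and ZT21, with 0.0575, 0.283, 0.334 and 0.402 CPM. The kinase RNA was thus scarce from ZT15 to ZT0 and most abundant late in the light, with the mice of ZT3 and ZT6 divided.

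The mean of Sgk2 at ZT6 was 7.48 ± 11.8 CPM, 49.3-fold the ZT18 mean of 0.152 ± 0.137 CPM (95% counting interval 28.1 to 102), but the SD exceeded the mean and the mice of ZT6 and ZT18 overlapped. The ratio was 11 without replicate 4 of ZT6 and 80.3 without replicate 4 of ZT18. At ZT9 the mean was 4.28 ± 3.09 CPM, and there the mice lay above all of ZT18. The cosine amplitude of Sgk2 was 1.78 ± 0.35 log2 units, the largest of the members. Without replicate 4 of ZT6 it fell to 1.60, and without replicate 2 of ZT6 it rose to 1.96.

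Lonrf3 (ENSMUSG00000016239, chromosome X, 36328353 to 36362341, plus strand) had a trough at ZT6 and a peak at ZT18. At ZT18 the 4 mice had 3.32, 3.75, 4.69 and 4.75 CPM. At ZT6 they had 0.0591, 0.111, 0.393 and 0.597 CPM, and at ZT9 0.277, 0.291, 0.725 and 0.753 CPM. The mice of mid-light and mid-dark were thus far apart. Between them lay ZT12 with 0.932, 1.58, 1.69 and 1.92 CPM, ZT15 with 2.42, 2.45, 2.7 and 3.49 CPM, and ZT21 with 1.9, 2.55, 3.06 and 4.42 CPM. ZT0 held 1.85, 2.07, 2.22 and 2.25 CPM and ZT3 held 0.764, 1.39, 1.47 and 3.12 CPM. The level rose and fell in steps over neighbouring time points that partly overlapped.

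The mean of Lonrf3 was 4.13 ± 0.705 CPM at ZT18 and 0.29 ± 0.252 CPM at ZT6, a ratio of 14.2 (95% counting interval 9.13 to 23.8) that became 22 without replicate 1 of ZT6. Its cosine amplitude was 1.51 ± 0.17 log2 units, and the cosine held 85.7% of the variance between time means.

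Nnat (ENSMUSG00000067786, chromosome 2, 157560078 to 157562522, plus strand) was high from ZT9 to ZT15. At ZT9 the 4 mice had 20.3, 32.3, 32.4 and 53.7 CPM. At ZT12 they had 20.5, 22.1, 22.2 and 41.8 CPM, and at ZT15 13.7, 18.2, 21 and 90.2 CPM. The 12 mice around lights off were therefore all at 13.7 CPM or more, and the ZT15 mean rested on replicate 1. At ZT0 the values were 1.86, 6.22, 6.56 and 13.6 CPM, at ZT3 4.08, 10.4, 19.5 and 20.1 CPM, and at ZT6 2.87, 3.31, 8.58 and 13.2 CPM. At ZT18 they were 1.82, 3.06, 11.4 and 16.7 CPM and at ZT21 2.24, 2.28, 6.26 and 7.81 CPM. Outside those hours the mice of a time point differed several-fold from each other.

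The highest mean of Nnat was 35.8 ± 36.4 CPM at ZT15 and the lowest 4.65 ± 2.83 CPM at ZT21, a ratio of 7.69 (95% counting interval 7.16 to 9.04), and the ZT9 mean was 34.7 ± 13.9 CPM. Without replicate 1 of ZT15 the ratio was 3.79. The amplitude was 1.31 ± 0.29 log2 units. All 3 time points with high Nnat shared lane 3, and with lane as a term of the fit the amplitude was 0.21, so for Nnat the daily change and the lane cannot be told apart. Nnat lies inside Blcap on the opposite strand and shares 0 exonic bases with it, and it shares 87 of its 1829 exonic bases (4.8%) with the miRNA gene Gm23134 on the opposite strand.

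Cys1 (ENSMUSG00000062563, chromosome 12, 24665833 to 24681813, minus strand) had the smallest amplitude and the smoothest course. At ZT15 the 4 mice had 2.86, 3.07, 3.75 and 6.83 CPM. At ZT3 they had 0.705, 0.78, 0.87 and 0.872 CPM, and at ZT6 0.617, 0.891, 0.955 and 1.24 CPM. Early light and early dark did not overlap. At ZT9 the values were 1.1, 1.28, 1.88 and 2.18 CPM, at ZT12 1.75, 1.86, 2.5 and 3.76 CPM, and at ZT18 2.76, 2.93, 3.03 and 3.27 CPM. At ZT21 they were 1.5, 1.55, 1.95 and 2.66 CPM and at ZT0 1.06, 1.09, 1.54 and 1.73 CPM. The 8 groups followed each other in a single rise and a single fall.

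The mean of Cys1 was 4.13 ± 1.84 CPM at ZT15 and 0.807 ± 0.0801 CPM at ZT3, a ratio of 5.12 (95% counting interval 3.9 to 7.05). Its amplitude was 0.98 ± 0.09 log2 units, the smallest of the members, and the cosine held 97.7% of the variance between time means, the largest share among them.

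Phyhip (ENSMUSG00000003469, chromosome 14, 70457476 to 70468832, plus strand) was lowest at ZT9 and ZT12 and highest at ZT18. At ZT18 the 4 mice had 3.27, 5.13, 8.89 and 18.4 CPM. At ZT9 they had 0.242, 0.291, 0.463 and 0.997 CPM, and at ZT12 0.364, 0.438, 0.465 and 1.02 CPM. Every ZT18 mouse was above every mouse of the late light phase, although the ZT18 mice themselves spread widely. At ZT15, 3 h after lights off, the values were already 2.21, 2.97, 4.02 and 5.16 CPM. The other groups held 1.59, 2.07, 2.62 and 3.5 CPM at ZT21, 1.39, 2.37, 2.86 and 5.92 CPM at ZT0, 0.872, 1.35, 2.94 and 3.07 CPM at ZT3, and 0.39, 1.35, 2.75 and 3.02 CPM at ZT6. From late dark to mid-light the groups overlapped broadly.

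The mean of Phyhip was 8.92 ± 6.74 CPM at ZT18 and 0.498 ± 0.346 CPM at ZT9, a ratio of 17.9 (95% counting interval 12.6 to 25.6). It was 11.6 without replicate 1 of ZT18 and 26.9 without replicate 3 of ZT9. Its amplitude was 1.33 ± 0.26 log2 units, and 65.4% of the variance between time means followed the cosine.

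Fam124b (ENSMUSG00000043230, chromosome 1, 80198706 to 80218473, minus strand) was the least abundant member, with 473 counts in all libraries together. At ZT0 the 4 mice had 1.22, 1.31, 1.84 and 2.56 CPM and at ZT3 1.22, 1.63, 2.22 and 2.29 CPM. At ZT12 they had 0, 0.0601, 0.116 and 0.121 CPM. Early light and lights off were thus separated by a wide gap, the latter at the edge of detection. At ZT6 the values were 0.828, 0.836, 1.17 and 1.18 CPM, at ZT9 0.175, 0.277, 0.289 and 0.363 CPM, and at ZT15 0.176, 0.236, 0.408 and 0.473 CPM. At ZT18 they were 0.166, 0.451, 0.661 and 0.928 CPM and at ZT21 0.623, 0.689, 1.11 and 1.61 CPM. The group means fell from ZT3 to ZT12 and rose again through the dark.

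The mean of Fam124b was 1.84 ± 0.509 CPM at ZT3 and 0.0744 ± 0.0569 CPM at ZT12, a ratio of 24.7. Because the ZT12 mean rests on 5 counts against 127 at ZT3, the 95% counting interval of the ratio runs from 10.5 to 78.8. The amplitude was 1.50 ± 0.14 log2 units, and the cosine held 92.7% of the variance between time means.

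The mice of the highest and the lowest time point did not overlap in 6 of the 7 members, Sgk2 being the exception. This separation of 4 against 4 mice was present in 58.3% of the tested genes outside the members (9034 of 15498), and since the members were chosen on this same difference nothing is read from their count. Among all 15505 tested genes, 154 had an amplitude of 0.98 or more, the value of Cys1, and the median amplitude was 0.14. Of the 147 of these outside the members, 68 passed the cosine test, and 13 of the 68 belonged to a list of 19 clock genes. By amplitude Sgk2 ranked 16, Lonrf3 38, Fam124b 40, Phyhip 54, Nnat 59, Nfe2l3 77 and Cys1 154. These ranks are from log2 CPM with a prior count of 2. With 0.5 the amplitude was 1.85 for Fam124b, 2.06 for Sgk2 and 1.33 for Nnat, against 1.50, 1.78 and 1.31.

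**Figure D2:**
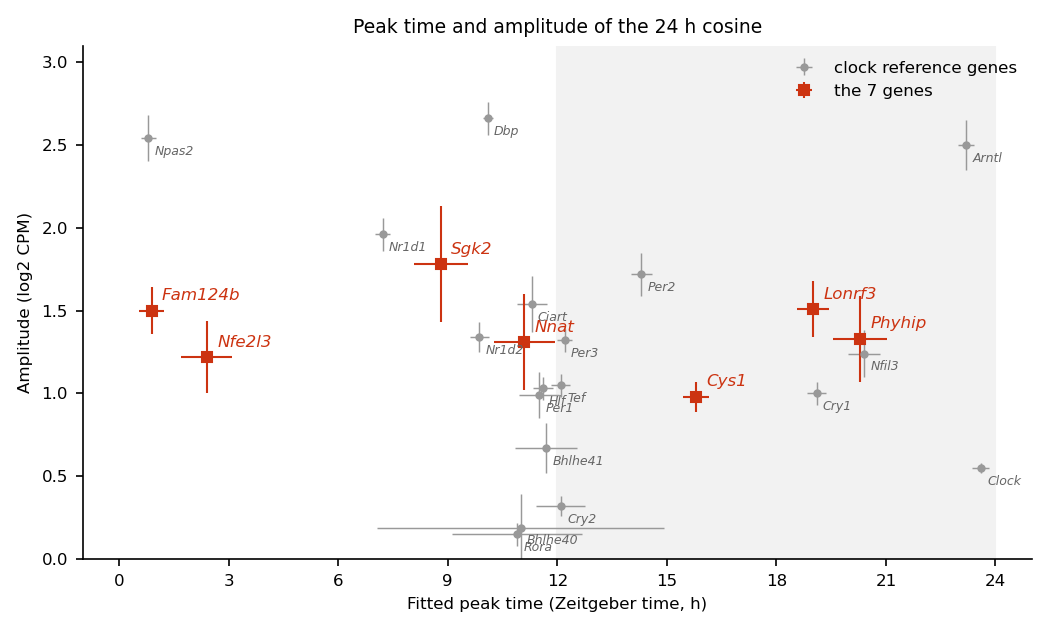
Fitted peak time (horizontal axis, ZT in hours) against fitted amplitude (vertical axis, log2 units from mean to peak) of the 7 members and of genes of the clock list, with bars of 1 SE and the dark phase shaded. The members lie between 0.98 and 1.78 log2 units, within the range of the clock genes, which reach 2.66 (Dbp).

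The members also differed in how much mice of the same time point varied. The SD of log2 CPM between mice of the same time point was 1.45 for Sgk2, 1.04 for Nnat and 0.81 for Phyhip. It was 0.57 for Nfe2l3, 0.55 for Lonrf3, 0.50 for Fam124b and 0.37 for Cys1. The median over all tested genes was 0.20, so all 7 varied more than the typical gene, and counting error is part of that spread at these low levels.

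Per kilobase of exon, which allows levels of different genes to be compared, Nnat averaged 9.4 ± 9.89 CPM per kb (SD over 32 libraries). It was followed by Phyhip with 0.992 ± 1.18, Nfe2l3 with 0.905 ± 0.933, Cys1 with 0.686 ± 0.433, Sgk2 with 0.564 ± 1.34, Lonrf3 with 0.524 ± 0.352 and Fam124b with 0.254 ± 0.21 CPM per kb. No difference between neighbours in that order exceeded the SD of the difference across libraries. Nnat was nevertheless above Phyhip in 30 of the 32 libraries.

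Lane entered the amplitudes unequally. With lane as a further term the amplitude was 1.15 log2 units for Fam124b, 1.98 for Sgk2, 1.83 for Lonrf3, 1.94 for Phyhip, 1.02 for Cys1 and 1.94 for Nfe2l3. Across the fits that each left out 1 library the amplitude ranged from 1.60 to 1.96 for Sgk2 and from 0.91 to 1.00 for Cys1, the widest and the narrowest of these ranges among the members. Of the 7 members, Nnat was thus the only one whose amplitude nearly vanished beside lane.

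**Figure D3:**
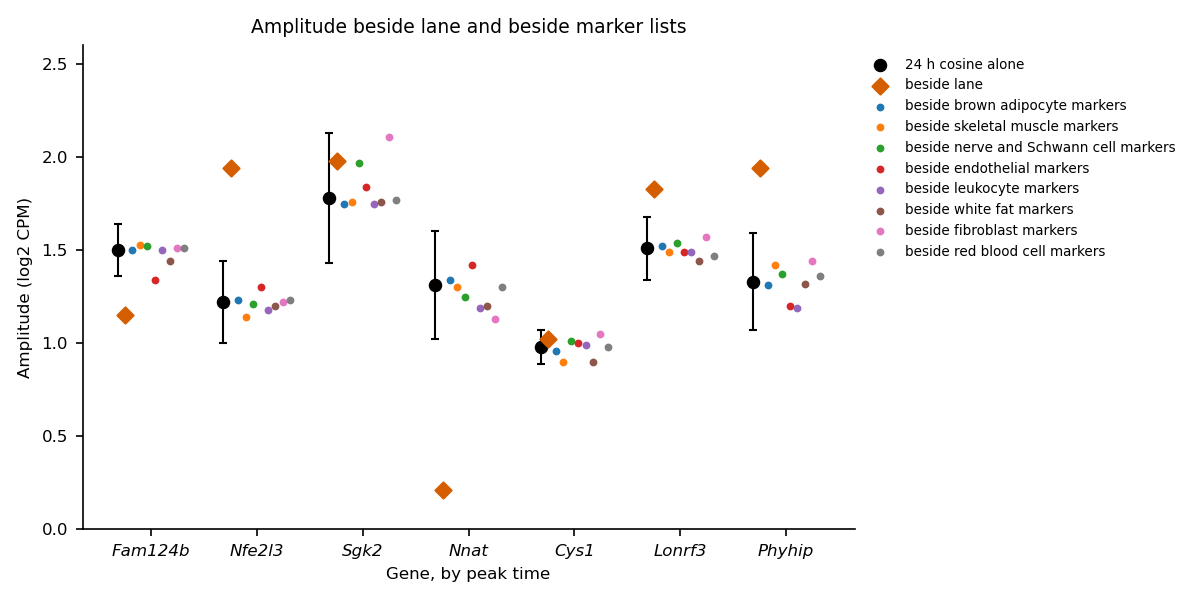
Fitted 24 h amplitude (vertical axis, log2 units) of each member, ordered by peak time along the horizontal axis, with the cosine alone (black points, bars of 1 SE), with lane as a further term (diamonds) and with the mean of each of 8 marker lists as a further term (small points). Nnat drops from 1.31 to 0.21 beside lane, Nfe2l3 and Phyhip move up to 1.94 each, and the marker lists move Nnat to between 1.13 and 1.42.

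For each member, the 3 genes outside the members with the highest Pearson r of log2 CPM over the 32 libraries and a mean of at least 1 CPM were listed. The points share time of day, so these r values describe patterns and carry no test. The genes most like Fam124b were Npas2 (r = 0.89), the partner of BMAL1, Plekhg1 (0.89) and Dtx4 (0.86). Among those most like Lonrf3 were the clock repressors Cry1 (0.85) and Nfil3 (0.83).

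Sgk2 resembled most closely Tbc1d20 (r = 0.90), Cntfr (0.88) and Pld6 (0.87). Nnat resembled Sncg (0.91), which encodes gamma-synuclein, Slc6a13 (0.88), a transporter of gamma-aminobutyric acid, and Cyp2e1 (0.85), a cytochrome P450. Phyhip resembled Nudt4 (0.84), Prune2 (0.84) and Ino80e (0.83). Cys1 resembled the glucocorticoid-induced gene Tsc22d3 (0.87), Prodh (0.87), which encodes proline dehydrogenase, and Fmo2 (0.86). Nfe2l3 had the loosest matches, Rnf125 (0.80), Adamts4 (0.79) and Rhou (0.79).

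The relatives and partners of the members were tested for a 24 h cosine with the quasi-likelihood test of edgeR, and p-values were adjusted over the whole table by the Benjamini-Hochberg (BH) method; 5595 of the 15498 genes outside the members passed, or 36.1%. With lane as a further term, 2655 of these 15498 genes passed. Of 7 genes around SGK kinases, 4 passed. Sgk1, the glucocorticoid-induced relative of Sgk2, had an amplitude of 0.30 ± 0.10 log2 units with a peak at ZT 9.63 (adjusted p = 0.0252), and Sgk3 had 0.32 ± 0.07 with a peak at ZT15 (adjusted p = 0.000595). Nedd4l, a ubiquitin ligase and SGK substrate, reached 0.21 ± 0.06 (adjusted p = 0.0137) and Ndrg1, another substrate, 0.16 ± 0.06 (adjusted p = 0.0393), a call that 24 of 32 leave-one-out fits and 5 of 9 alternative fits kept. Pdpk1, Rictor and Mapkap1, which encode PDK1 and subunits of the mTOR complex that phosphorylates SGKs, had amplitudes of 0.05 to 0.06 and did not pass. With lane as a term 2 of the 7 passed. The median amplitude of this list was 0.16, against 0.14 over all tested genes.

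Of 9 cap'n'collar factors and partners, 8 were tested and 3 passed, all with peaks from lights off into the dark. Nfe2l2, which encodes NRF2, had an amplitude of 0.34 ± 0.07 with a peak at ZT 15.5 (edgeR adjusted p = 0.000674), its partner Mafg had 0.21 ± 0.04 with a peak at ZT 15.7 (adjusted p = 0.000186) and Nfe2l1 0.12 ± 0.03 with a peak at ZT12 (adjusted p = 0.0244). With lane as a term Nfe2l2 and Mafg passed and Nfe2l1 did not (adjusted p = 0.496); Nfe2l1 passed in 6 of the 9 alternative fits. Nfe2l3 itself had its lowest mean at ZT15 and its highest at ZT3. Bach1, Bach2, Maff, Mafk and Keap1 did not pass, with amplitudes from 0.07 to 0.42.

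Both relatives of Lonrf3 passed: Lonrf1 had an amplitude of 0.52 ± 0.08 with a peak at ZT 14.6 (edgeR adjusted p = 5.44e-05) and Lonrf2 0.46 ± 0.09 with a peak at ZT 20.5 (adjusted p = 0.000774). Neither passed with lane as a term. Of 4 tested genes around phytanoyl-CoA hydroxylase, Slc27a2, an acyl-CoA synthetase of very long chains, passed with an amplitude of 0.87 ± 0.10 and a peak at ZT 7.37 (adjusted p = 1.25e-07), whereas Phyh itself, at a mean of 646 CPM, had an amplitude of 0.01 ± 0.02 (adjusted p = 0.925). Hacl1 (0.13) and Aldh3a2 (0.05) did not pass. Fam124a, the relative of Fam124b, had an amplitude of 0.19 ± 0.12 (adjusted p = 0.328).

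Among 15 imprinted genes listed beside Nnat, 7 passed, 6 with a peak in the light. Peg3, a zinc finger factor gene, had an amplitude of 0.48 ± 0.11 with a peak at ZT 4.66 (edgeR adjusted p = 0.00108), and Blcap, the host of Nnat, 0.22 ± 0.06 with a peak at ZT 7.41 (adjusted p = 0.014). H19 had an amplitude of 0.87 ± 0.62 and did not pass (adjusted p = 0.71). With lane as a term 1 of these 15 genes passed, and Blcap passed in 7 of the 9 alternative fits.

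Of 13 tested genes of the primary cilium listed beside Cys1, 4 passed: Unc119b with an amplitude of 0.21 ± 0.05 (edgeR adjusted p = 0.0027), Bbs1 with 0.17 ± 0.04 (adjusted p = 0.00898), Ift88 with 0.12 ± 0.03 (adjusted p = 0.0189) and Ift52 with 0.08 ± 0.02 (adjusted p = 0.0125). None passed with lane as a term, and Ift88 passed in 5 and Ift52 in 7 of the 9 alternative fits. The 4 peaks fell at ZT 0.56, ZT 19.1, ZT 0.5 and ZT 10.1, and the list's median amplitude was 0.09. Of the 19 clock genes, 17 passed, with a median amplitude of 1.05 over the list. With lane as a term 15 of the 19 passed.

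The genes that lie beside or across the members on the chromosome were tested as well. Of 16 overlapping or nearest tested genes, 6 passed the cosine test, a share close to the 36.1% of all genes, and the largest amplitude among those 6 was 0.47, that of Klf11, a zinc finger factor gene 3043 bases from Cys1 (edgeR adjusted p = 0.00999). Klf11 peaked at ZT 4.89 and Cys1 at ZT 15.8. The 5 others were Ift52 beside Sgk2, Blcap across Nnat, Gm14286 near Nnat, and 4921507P07Rik and Hnrnpa2b1 on either side of Nfe2l3. Hnrnpa2b1 kept its call in 23 of 32 leave-one-out fits, and Hnrnpa2b1, Ift52 and Blcap each passed in 7 of 9 alternative fits. With lane as a term 3 of the 6 passed, and Klf11 (adjusted p = 0.352), Ift52 (0.35) and Blcap (0.371) did not.

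Differences between mice of the same time point were compared first with a fasting index, the mean deviation of Angptl4, Pck1 and Pdk4, genes that rise in fasting, from their time point means. By edgeR's quasi-likelihood test 0 of the 7 members passed the BH threshold, and 1 had an unadjusted p under 0.05; DESeq2 also called 0. Over all genes 97 of 15502 passed, or 0.626%. Phyhip changed by -0.78 ± 0.28 log2 units per unit of the index (unadjusted p = 0.0105, adjusted p = 0.268), and Sgk2 by 1.15 ± 0.60 (adjusted p = 0.461). The 5 other slopes lay between 0.03 (Lonrf3) and 0.39 (Nnat), with adjusted p-values of 0.567 to 0.973. The count over all genes depended on single libraries, from 30 without replicate 4 of ZT0 to 210 without replicate 2 of ZT9.

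The same comparison with skeletal muscle markers also gave 0 of 7 members past the BH threshold with edgeR, 1 at an unadjusted p under 0.05, and 0 with DESeq2. With edgeR 486 of 15497 genes (3.14%) passed. The slopes ran from -0.08 ± 0.04 (Phyhip) to 0.04 ± 0.02 log2 units (Cys1) per log2 unit of muscle RNA. The lowest unadjusted p over the 32 libraries was that of Cys1, 0.0319 (adjusted p = 0.421 by edgeR). The muscle index ranged from -6.28 to 6.39 log2 units around the time point means.

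The 21 pairs of members were compared in the same way, over 32 libraries. No pair passed a BH threshold of 0.05 in a permutation test of mice within time points (100000 resamples, two-sided), 5 had an unadjusted p under 0.05, and the smallest adjusted p was 0.156. That pair was Sgk2 and Phyhip, with r = -0.602 (permutation p = 0.00742) and rho = -0.446 (permutation p = 0.04). Once the 2 mice most extreme in Sgk2 were set aside, r was -0.418 (permutation p = 0.0561). Taken by lane, r was -0.892 in lane 2, 0.188 in lane 3 and -0.185 in lane 4, and the difference between lanes was not tested. The other 4 pairs were Nnat and Lonrf3 (r = -0.403), Nnat and Cys1 (0.386), Sgk2 and Cys1 (-0.345) and Fam124b and Sgk2 (0.286), each with a BH adjusted permutation p of 0.195.

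The deviations of the 7 members were also set against 8 lists of cell type markers, 56 relations in all, a comparison added after the data had been seen. A BH threshold of 0.05 was passed by 2 of them, and 6 had an unadjusted permutation p under 0.05. Nnat followed the 3 white fat markers Lep, Retn and Agt, with r = 0.667 (permutation p = 0.00041, BH adjusted p = 0.0115) and rho = 0.602 (permutation p = 0.00228). Setting aside the 2 mice with the most extreme marker values gave r = 0.616, and lanes 2, 3 and 4 gave r of 0.864, 0.796 and 0.263. Of the single markers, Retn gave r = 0.670, Agt 0.556 and Lep 0.288, and all 3 were detected in every library. Mice with more of these transcripts, mainly Retn and Agt, than others killed at the same hour thus had more Nnat. The r was lowest in lane 4, and the difference between lanes was not tested.

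The summed white fat markers were also lowest at ZT6, with a mean of 53.7 CPM, and highest at ZT15, with 240 CPM, and ranged from 43.9 to 328 CPM over the libraries. Of the 3 markers, Lep had a cosine amplitude of 1.07 ± 0.21 with a peak at ZT16 (edgeR adjusted p = 0.0017), while Retn (0.07, adjusted p = 0.693) and Agt (0.16, adjusted p = 0.889) did not pass, and Lep was the marker least related to Nnat. With the mean log2 CPM of these markers as a term, the amplitude of Nnat was 1.20 log2 units and its peak at ZT 9.41. The part of fat cell type in the daily change of Nnat was not tested beyond this.

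Cys1 followed the nerve and Schwann cell markers, with r = 0.693 (permutation p = 0.00033, BH adjusted p = 0.0115) and rho = 0.698 (permutation p = 0.00043). Setting aside the 2 most extreme mice gave r = 0.722, and lanes 2, 3 and 4 gave r of 0.544, 0.750 and 0.800. Of the 10 markers 6 were tested. Among them r was 0.619 for Sox10, a transcription factor gene of glia, 0.517 for Uchl1 and 0.161 for S100b. The neuronal markers Th, Snap25, Tubb3 and Prph were near 0, at means of 0.0433, 0.0269, 0.117 and 0.0274 CPM. The summed list ranged from 88.1 to 292 CPM, none of its tested genes passed the cosine test, and with its mean log2 CPM as a term the amplitude of Cys1 was 1.01 log2 units with a peak at ZT 16.1. The differences in Cys1 between mice of a time point thus moved with these transcripts, whose part in its daily change was not tested.

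**Figure D4:**
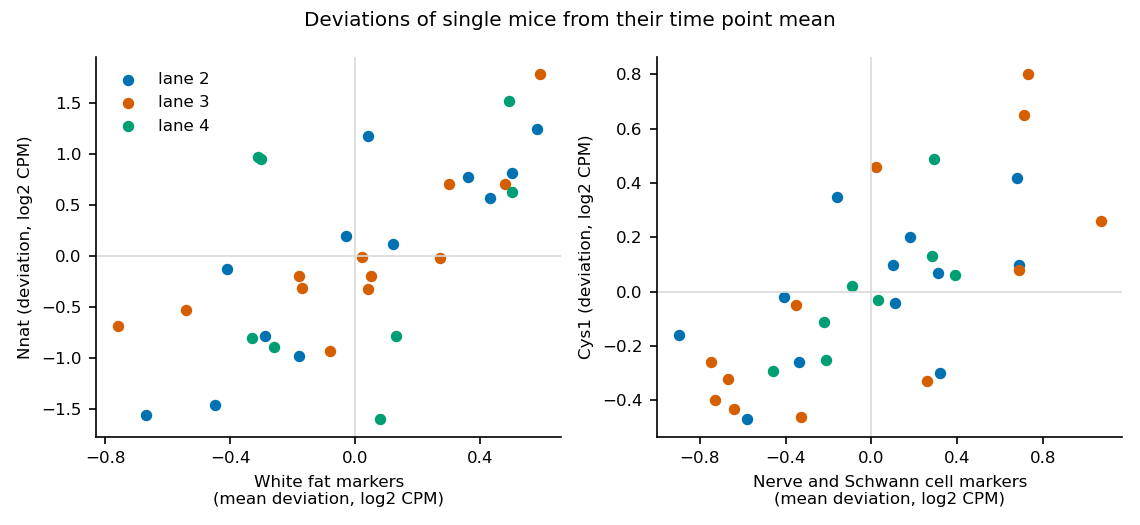
Deviation of each mouse from the mean log2 CPM of its own time point, for Nnat against the white fat markers (left) and Cys1 against the nerve and Schwann cell markers (right), with 1 point per library (n = 32) coloured by sequencing lane. Nnat rises with the white fat markers (r = 0.667), with the lowest r in lane 4, and Cys1 with the nerve and Schwann cell markers (r = 0.693). The difference between lanes was not tested.

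The next relations, Cys1 with fibroblast markers (r = 0.609) and Fam124b with endothelial markers (r = 0.450), both had a BH adjusted permutation p of 0.0564. A single further relation was tested after the data had been seen, that of Nnat with Blcap, in whose intron it lies. Over the 32 libraries the deviations gave r = 0.528 (permutation p = 0.00196) and rho = 0.581 (permutation p = 0.00094). Setting aside the 2 most extreme mice gave r = 0.386 (permutation p = 0.0396), and lanes 2, 3 and 4 gave r of 0.410, 0.734 and 0.658. The sources do not say if reads were assigned by strand, so reads from the Blcap strand over the exons of Nnat may have been counted for Nnat.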

How the data were processed

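RNA of 32 iBAT samples, 4 mice at each of 8 Zeitgeber times, was sequenced. The authors deposited raw counts per Ensembl gene; according to the submitters' processing notes these came from GSNAP and HTSeq 0.6.1 on mm10. The strand setting of the counting is not given in the sources used here. Totals were 16300770 to 18254659 per library, and 15505 of 50686 genes passed filterByExpr.

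Counts were scaled by TMM in edgeR 4.0.16 (R 4.3.3) and tested with its quasi-likelihood test, with BH adjustment over all tested genes and a threshold of 0.05. A 24 h cosine was fitted to all libraries, and the fasting and muscle indices were fitted beside the time point as a factor. Amplitudes, peak times and correlations used log2 CPM with a prior count of 2. The amplitude is the distance from the mean to the peak. Correlations of deviations from time point means were tested by 100000 permutations of mice within time points, and by exact enumeration of the orders of mice within lanes. Methods were tested on simulated data. Coordinates are from GENCODE M21 (GRCm38).

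Named genes were the 7 members, the 3 most alike genes of each, overlapping and nearest tested genes, and the gene and marker lists. Members and lists were chosen with earlier results of these data known. Each library came from a separate mouse per the study's methods. The lowest mean chi-square per gene between libraries of a time point was 7.97, so none was counted as a duplicate. Equal replicate numbers did not pair mice across time points. Alternatives were other scalings and filters, DESeq2 1.42.0, lane as a term, marker lists as terms, other fasting indices and leaving out each library. A prior count of 0.5 and JTK_CYCLE, which searched periods of 21 and 24 h, were further alternatives. A few genes of the lists are not reported here by name.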

Additional observations from a re-analysis of the deposited data

Results flagged for a closer look

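In 4 of the 56 groups of 4 mice (7 genes at 8 time points) a single mouse lay apart from the others. Its gap over the range was beyond the 95% limit of Dixon's test. Were the values normally distributed, chance alone would give about 1 in 20, or 2.8. The test was run on CPM without a log, so that number may not hold here. Sgk2 at ZT9 had 8.92 CPM in replicate 2 and 2.62 to 2.93 CPM in the others. Nnat at ZT12 had 41.8 CPM in replicate 4 and 20.5 to 22.2 CPM in the others. Nnat at ZT15 had 90.2 CPM in replicate 1 and 13.7 to 21 CPM in the others. Phyhip at ZT12 had 1.02 CPM in replicate 1 and 0.364 to 0.465 CPM in the others. All 4 were the highest mouse of their group.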

How the results depend on the processing

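Over all genes, the count past the 24 h cosine test was 5595, fell to 2655 with lane as a term and was 5901 by DESeq2. JTK_CYCLE, which searched periods of 21 and 24 h, called 4188. Samples that shared a replicate number did not deviate together: 49 of 112 such library pairs had a correlation over 0.1, the correlations ran from -0.726 to 0.767, and 8 of 32 libraries matched best a library of their own number. A replicate block gave 5366 genes for the cosine, 117 for the fasting index and 459 for muscle transcripts. The count with the fasting index, 97, was 201 with library size alone, 208 with Angptl4 alone, 154 with Pck1 alone, 202 with DESeq2 and 30 to 210 when single libraries were left out. It moved by over 1.5 times without replicate 3 or 4 of ZT0, 2 or 3 of ZT9, 1 of ZT12, 1 or 4 of ZT15, 1, 3 or 4 of ZT18 and 4 of ZT21.

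Among the gene lists, the SGK genes past the cosine test were 2 beside lane and 2 by JTK_CYCLE instead of 4, the LONRF genes 0 beside lane instead of 2, the genes around phytanoyl-CoA hydroxylase 2 with library size alone and 1 to 2 without single libraries instead of 1, the imprinted genes 1 beside lane and 3 by JTK_CYCLE instead of 7, and the cilium genes 0 beside lane instead of 4. Marker and fasting genes not counted, 42 relatives, clock genes and neighbours were past the threshold. Of these, 24 passed beside lane and 36 in every fit that left out 1 library. In every alternative fit but lane 34 passed, and JTK_CYCLE was not among the alternatives of that count.

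Beside lane, the peak was at ZT 0.357 for Fam124b, ZT 6.84 for Sgk2, ZT 4.66 for Nnat (amplitude 0.21), ZT 19.6 for Lonrf3, ZT 16.5 for Phyhip, ZT 16.3 for Cys1 and ZT 3.35 for Nfe2l3 (amplitude 1.94). The following alternatives, and the ratios of time point means without single mice, were added after the data had been seen. The peak of Nnat was at ZT 9.41 beside white fat markers, that of Cys1 at ZT 16.3 beside fibroblast markers, and that of Nfe2l3 at ZT 1.31 beside leukocyte and ZT 1.15 beside fibroblast markers. The relations with marker lists past the threshold were 4 with library size alone and 2 to 4 without single libraries instead of 2, with 4 reached without replicate 4 of ZT21. Cys1 with fibroblast markers passed with library size alone (r = 0.65) and with a replicate block (r = 0.639), and Fam124b with endothelial markers passed with library size alone (r = 0.51). Without single libraries their r ran from 0.493 to 0.668 and from 0.414 to 0.521. Nnat with white fat and Cys1 with nerve markers passed in every alternative run, with BH adjusted permutation p up to 0.0484, without replicate 1 of ZT15.

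Some slopes that did not pass the threshold changed sign: with the fasting index, Nnat was -0.05 and Cys1 -0.14 without replicate 1 of ZT15, and Lonrf3 was -0.00041 with Pck1 alone and -0.05 without replicate 2 of ZT9. With muscle transcripts, Sgk2 was 0.02 with DESeq2 and 0.0033 without replicate 2 of ZT6, and Lonrf3 was -0.00023 without mitochondrially encoded genes, -0.0013 with DESeq2 and -0.0094 without replicate 4 of ZT3. Left out in turn, single libraries moved these slopes up to 0.77 for Nnat, 0.06 for Lonrf3 and 0.15 for Cys1 with the fasting index, down to -0.15 for Sgk2 and up to 0.0099 for Lonrf3 with muscle transcripts. The cause of these changes was not tested. Depth limits Fam124b most, whose ZT12 mean rests on 5 counts.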

Other observations

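Of the remaining relations between members and marker lists, Sgk2 with nerve and Schwann cell markers had r = -0.415 and rho = -0.394 (BH adjusted permutation p = 0.415), and Cys1 with skeletal muscle markers had r = 0.420 and rho = 0.404 (BH adjusted permutation p = 0.163); neither passed. The fibroblast markers Pdgfra, Col1a1 and Col3a1 passed the cosine test, with peaks between ZT 7.29 and ZT 7.6, and so did the leukocyte markers Adgre1 and Csf1r, with peaks at ZT 7.46 and ZT 8.54. Among the other cell type markers, Ucp1 passed with a peak at ZT 6.48, Lep with a peak at ZT16, and the endothelial markers Cdh5 and Kdr with peaks at ZT 3.01 and ZT 23.8.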
